A study of Mus musculus with 6 samples.

Results

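The genes described here encode proteins that neutrophils store in their granules: 4 primary granule genes (Mpo, Elane, Prtn3 and Ctsg) and 6 later granule genes (Ltf, Camp, Ngp, Lcn2, Mmp8 and Mmp9). They were chosen by gene symbol from the gene table of MLL-AF9 mouse leukemia cells, and each of the 10 stood on 1 row of its own and passed the filter of a mean of 1 FPKM (a measure of fragments that is divided by transcript length and library size) that left 11130 of 26082 gene names to be tested. With DS-5272, all 4 primary genes fell, from a 1.60-fold lower mean for Prtn3 to a 35.6-fold lower mean for Mpo, and 4 of the 6 later genes rose, from 5.69-fold for Lcn2 to 21.0-fold for Mmp9. The remaining later genes, Camp and Ngp, had higher means with DS-5272 and overlapping groups, and they did not pass the test unless samples with the same replicate number were compared with each other. The sources do not state such a pairing.

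Neutrophil granules are filled in the order in which their proteins are made. Promyelocytes make the primary, or azurophil, granules with myeloperoxidase and the serine proteases, myelocytes and metamyelocytes make the specific granules with lactoferrin, cathelicidin and lipocalin, and gelatinase granules with Mmp9 follow as the nucleus segments. The level of each transcript therefore marks a stage of maturation in normal bone marrow, and the MLL-AF9 fusion is known to give leukemias that hold cells at an early granulocyte and monocyte stage.

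RNA-Seq was performed on leukemia cells that were isolated with a cell sorter from the bone marrow of C57BL/6J mice, and all 6 samples carried the transduced MLL-AF9 gene. Of these samples, 3 came from mice given vehicle and 3 from mice given DS-5272, an orally active inhibitor of the p53-MDM2 interaction, at 80 mg/kg, and cells were taken 24 h after the dose. MLL-AF9 was delivered by retrovirus to c-Kit+ progenitors of bone marrow, and per the study's methods the leukemia was passed through mice several times, so the cells are a selected transplantable line of disease. The sorting marker, the age of the mice and whether each sample was 1 mouse are not given in the sources used here, so p-values measure the spread between these samples. Summed FPKM ran from 445316 to 501241 with vehicle and from 499229 to 661184 with DS-5272, while the depth relative to vehicle replicate 1, read from the steps of low values, was at least 0.809 in the other vehicle samples and 0.539 to 0.747 with DS-5272, so low values carry more counting error with DS-5272. Where 3 values are given for a group, they are those of replicates 1, 2 and 3 in this order.

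In GRCm38 with GENCODE M21, Prtn3 (chr10:79874476-79883174, plus strand) and Elane (chr10:79886247-79888215, plus strand) are neighbours with 3072 bases between them. Mpo lies at chr11:87793581-87804413 on the plus strand and Ctsg at chr14:56099881-56102574 on the minus strand. Camp (chr9:109847379-109849617, minus strand), Ngp (chr9:110419747-110423012, plus strand) and Ltf (chr9:111019271-111042767, plus strand) share a stretch of chromosome 9, with 570129 bases between Camp and Ngp and 596258 bases between Ngp and Ltf. Mmp8 is on the same chromosome at chr9:7558456-7568485 on the plus strand, and Lcn2 (chr2:32384633-32388252, minus strand) and Mmp9 (chr2:164940780-164955850, plus strand) are both on chromosome 2. FPKM values are given per gene, not per exon. Exons of Mpo overlap Gm11505 and exons of Prtn3 overlap Plppr3 on the opposite strand, and since counting is not stated to use strand, fragments of those genes may be included. Of the 50-base stretches of Mpo and Prtn3 transcripts, 9.46% and 6.45% also occurred in transcripts of other genes, and for the remaining 8 members none did.

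The promoters of 9 members were found in RefSeq (GRCm38.p6, 250 bases before to 50 after the start), and 5 are shown. These are Mpo and Elane among the genes that fell, and Ltf, Ngp and Lcn2 among the later genes, of which Ngp had no call without the replicate block. They lie at chr11:87793534-87793833 (plus strand), chr10:79886062-79886361 (plus strand), chr9:111019042-111019341 (plus strand), chr9:110419558-110419857 (plus strand) and chr2:32387690-32387989 (minus strand). Capitals mark matches, on either strand, to TTGCNNAA, a form of the C/EBP element, and to GAGGAA, the core of the PU.1 element. All later promoters shown hold a TTGCNNAA match, while that of Camp, which is not shown, holds none.
Mpo: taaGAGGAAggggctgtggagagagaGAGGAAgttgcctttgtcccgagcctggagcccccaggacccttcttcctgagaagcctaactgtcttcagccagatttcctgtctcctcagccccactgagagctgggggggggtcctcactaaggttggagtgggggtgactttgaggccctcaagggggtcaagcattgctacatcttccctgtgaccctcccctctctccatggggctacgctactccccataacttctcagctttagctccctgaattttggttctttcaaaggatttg
Elane: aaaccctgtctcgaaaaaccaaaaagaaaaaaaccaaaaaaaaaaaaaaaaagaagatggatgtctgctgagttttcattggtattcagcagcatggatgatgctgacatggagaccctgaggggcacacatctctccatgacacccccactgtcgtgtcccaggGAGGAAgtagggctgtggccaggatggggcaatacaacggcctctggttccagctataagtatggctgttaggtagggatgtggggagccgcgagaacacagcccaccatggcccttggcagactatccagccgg
Ltf: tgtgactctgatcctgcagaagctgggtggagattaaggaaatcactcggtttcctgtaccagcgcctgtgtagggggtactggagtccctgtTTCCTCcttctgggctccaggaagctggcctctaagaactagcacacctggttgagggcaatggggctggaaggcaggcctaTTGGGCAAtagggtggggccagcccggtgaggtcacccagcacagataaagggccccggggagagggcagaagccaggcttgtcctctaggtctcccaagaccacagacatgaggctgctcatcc
Ngp: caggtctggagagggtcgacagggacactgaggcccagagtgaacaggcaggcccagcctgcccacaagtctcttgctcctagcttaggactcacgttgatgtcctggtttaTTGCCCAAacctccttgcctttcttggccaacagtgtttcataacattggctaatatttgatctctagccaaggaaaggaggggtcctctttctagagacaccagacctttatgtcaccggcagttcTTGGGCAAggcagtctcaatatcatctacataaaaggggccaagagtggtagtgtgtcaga
Lcn2: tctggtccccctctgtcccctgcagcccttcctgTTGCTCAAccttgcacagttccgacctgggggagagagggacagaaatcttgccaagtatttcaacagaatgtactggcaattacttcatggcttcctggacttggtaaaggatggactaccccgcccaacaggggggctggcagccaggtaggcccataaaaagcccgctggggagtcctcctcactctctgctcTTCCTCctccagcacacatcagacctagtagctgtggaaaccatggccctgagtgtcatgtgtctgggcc

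C/EBP factors and PU.1 are the transcription factors best known for switching on granule genes. A match to TTGCNNAA stood in 4 of the 9 promoters, all of later genes: Ltf at −75, Ngp at −138 and −11, Lcn2 at −216 and Mmp8 at −19, counted from the start site. It was in 10.8% of the 32817 mouse promoters searched in the same way, and in none of the 4 primary genes nor in Camp. GAGGAA stood in 7 of the 9 promoters, those of all 4 primary genes and of Ltf, Lcn2 and Mmp8, against 28.3% of all promoters. The RUNX element TGTGGT was in 2 of the 9 (Ctsg and Ltf) against 16.8% of promoters, the NF-kB element (3 G, any 5 bases and 2 C) in 5 of the 9 against 50.8%, and the AP-1 element TGANTCA in 0 of the 9 against 7.81%. No TTGCNNAA match in these promoters shared a base with a GAGGAA match. These matches are letters in a short window and not measured binding.

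All 4 primary granule genes fell, where 22.0% of all tested genes fell and 24.2% rose. Their median difference was −1.74 in log2(FPKM + 1), the scale of each difference given here, against a median of 0.04 over all tested genes, and in none of the 4 did the groups overlap, against 29.7% of tested genes that lay lower with DS-5272 without overlap. With the replicate number as a block in the fit all 4 fell as well, where 24.9% of tested genes fell. These are bulk samples, in which fewer cells of a type and less RNA per cell cannot be told apart.

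**Figure D1:**
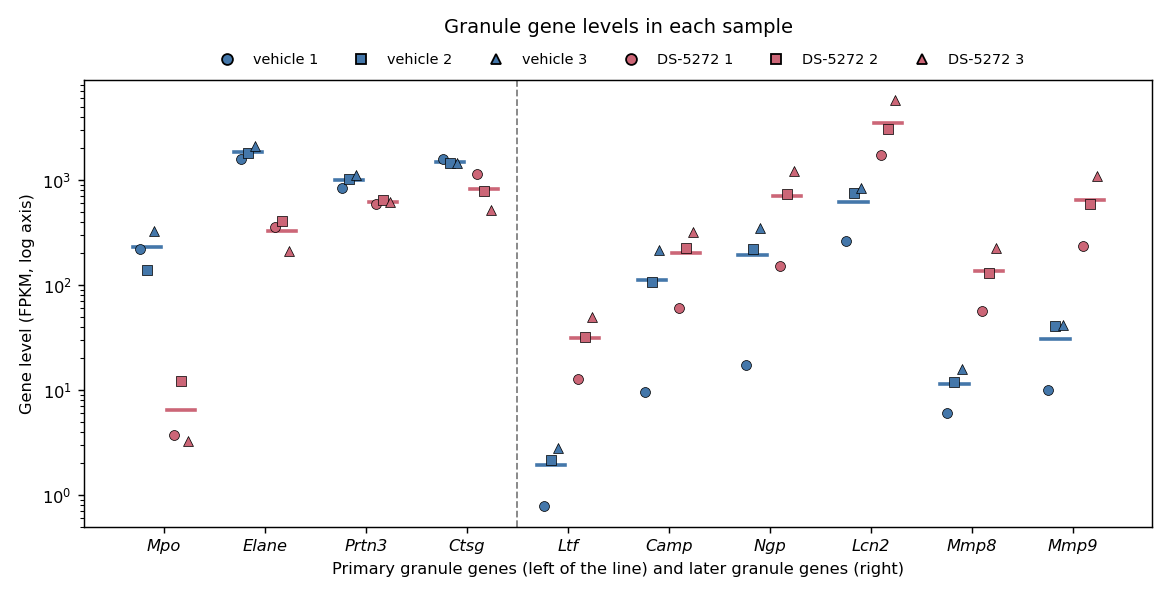
Levels of the 10 granule genes in each sample, in FPKM on a log axis, with 1 symbol for each sample and a bar at the mean of the 3 samples of a group, vehicle in blue and DS-5272 in red. Left of the dashed line the DS-5272 samples of the primary genes lie below the vehicle samples, and right of it they lie above them except for Camp and Ngp, where the groups overlap.

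Mpo encodes myeloperoxidase, which makes hypochlorous acid in the phagosome and is the classic stain of myeloid leukemia. Mpo stood at 218, 140 and 325 FPKM with vehicle and at 3.77, 12.2 and 3.25 FPKM with DS-5272. The lowest vehicle sample was thus far above the highest DS-5272 sample. As ratios, the vehicle samples spanned 2.32-fold and the DS-5272 samples 3.75-fold, beside a 35.6-fold difference of the means. The mean dropped from 228 ± 92.8 to 6.40 ± 5.02 FPKM (SD, n = 3 each), a difference of −5.07 ± 0.49 (SE, limma adjusted p = 0.0014). This was the largest fall among the 11130 tested genes, and it ranked 1 or 2 under each of the 16 alternatives, with values from −5.58 to −4.77. In order of level, Mpo moved from place 292 among the tested genes with vehicle to place 7891 with DS-5272.

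Elane encodes neutrophil elastase, a serine protease that digests bacterial proteins and matrix. Its level was 1579, 1800 and 2128 FPKM with vehicle and 353, 411 and 210 FPKM with DS-5272. With vehicle it was among the most abundant transcripts of the cells, at place 14, and with DS-5272 it was at place 284. The mean dropped 5.65-fold, from 1835 ± 276 to 325 ± 103 FPKM (SD, n = 3 each), a difference of −2.54 ± 0.27 (SE, limma adjusted p = 0.0017).

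Prtn3, proteinase 3, sits beside Elane on chromosome 10 and encodes a close relative of elastase. It was measured at 839, 1024 and 1113 FPKM with vehicle and at 591, 651 and 613 FPKM with DS-5272. The groups did not overlap, and the 3 DS-5272 samples lay close together. The difference was −0.67 ± 0.15 (SE, limma adjusted p = 0.011), from 992 ± 140 to 618 ± 30.6 FPKM (SD, n = 3 each), and the call was lost without vehicle replicate 2 (adjusted p = 0.054) or vehicle replicate 3 (adjusted p = 0.051 from limma, in a range from 0.0028 to 0.054 over the alternatives).

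Ctsg encodes cathepsin G, the chymotrypsin-like protease of the same granules. It stood at 1593, 1447 and 1436 FPKM with vehicle and at 1138, 788 and 523 FPKM with DS-5272. The vehicle samples were nearly alike, and the DS-5272 samples were spread out below them, with replicate 3 lowest. The mean went from 1492 ± 87.6 to 816 ± 309 FPKM (SD, n = 3 each), a difference of −0.94 ± 0.28 (SE, limma adjusted p = 0.031). This was the least secure of the 4 calls: it was lost with no filter on low genes (adjusted p = 0.078), without DS-5272 replicate 2 (0.072) and without vehicle replicate 1, 2 or 3 (0.085, 0.083 and 0.075), while with the replicate block it was 0.0077 from limma.

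The 4 genes that fell did so by unequal amounts. The 95% intervals of the difference were −6.23 to −3.91 for Mpo, −3.18 to −1.91 for Elane, −1.60 to −0.28 for Ctsg and −1.02 to −0.33 for Prtn3, so those of Mpo and Elane overlapped no other, and those of Ctsg and Prtn3 overlapped each other. The neighbours Elane and Prtn3 parted: the ratio of Elane to Prtn3, both in FPKM, was 1.88, 1.76 and 1.91 with vehicle and 0.597, 0.632 and 0.343 with DS-5272. Elane was thus the higher of the pair in every vehicle sample and the lower in every DS-5272 sample. As a share of the summed FPKM of the 4 genes, Mpo took 3.18% to 6.50% with vehicle and 0.181% to 0.655% with DS-5272, and Elane 37.3% to 42.5% and 15.6% to 22.1%. Prtn3 and Ctsg made up 28.3% to 45.4% and 38.8% to 54.6% of the sum with DS-5272, against 19.8% to 23.2% and 28.7% to 37.7% with vehicle, although both fell in level.

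Among the 6 later genes, all of which had higher means with DS-5272, 4 rose in the limma test, where 24.2% of tested genes rose, and the groups of the same 4 did not overlap, against 32.1% of tested genes that lay higher with DS-5272 without overlap. The median difference of the 6 was 2.93. With the replicate number as a block in the fit all 6 rose, where 30.3% of tested genes rose.

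**Figure D2:**
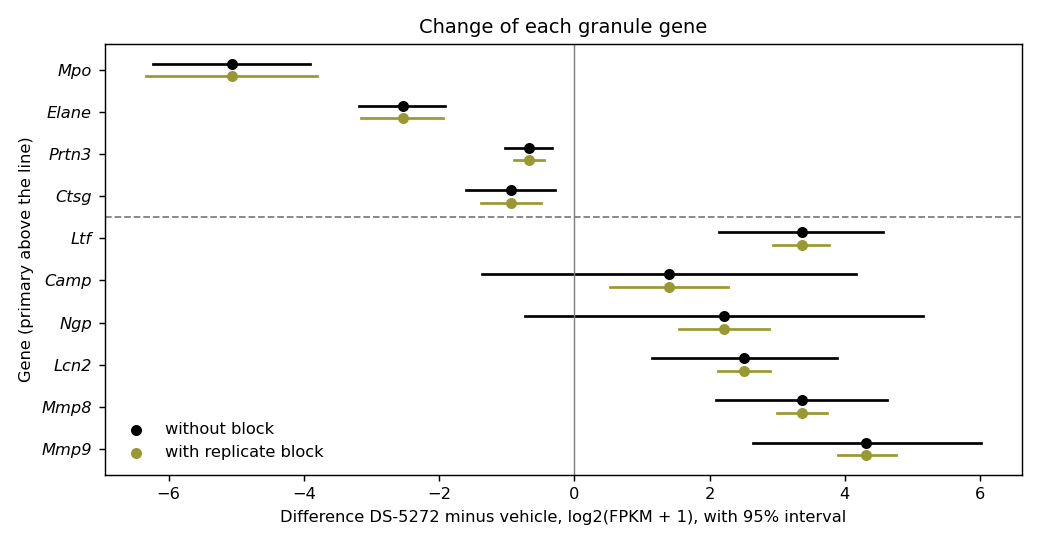
Difference in log2(FPKM + 1) between DS-5272 and vehicle for each granule gene with its 95% interval from limma, without (black) and with (olive) the replicate number as a block, 3 samples a group. The 4 primary genes lie left of 0 and the 6 later genes right of it, and the intervals of Camp and Ngp reach across 0 only without the block.

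Ltf encodes lactoferrin, the iron-binding protein that defines the specific granule. It was barely present with vehicle, at 0.778, 2.15 and 2.83 FPKM, and stood at 12.6, 32.2 and 49.9 FPKM with DS-5272. Every DS-5272 sample was above every vehicle sample. The mean went from 1.92 ± 1.04 to 31.6 ± 18.7 FPKM (SD, n = 3 each), 16.5-fold higher, a difference of 3.36 ± 0.51 (SE, limma adjusted p = 0.0043).

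Mmp8, the neutrophil collagenase of the specific granules, was at 6.04, 12.0 and 16.0 FPKM with vehicle and at 56.1, 129 and 223 FPKM with DS-5272. The groups were well apart, and in both the lowest sample was replicate 1 and the highest replicate 3. The mean rose 12.0-fold, from 11.3 ± 4.99 to 136 ± 83.7 FPKM (SD, n = 3 each), a difference of 3.36 ± 0.53 (SE, limma adjusted p = 0.0048).

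Lcn2 encodes lipocalin-2, which binds the siderophores with which bacteria take up iron, and it was the most abundant later gene in every sample. Its level was 261, 752 and 841 FPKM with vehicle and 1747, 3076 and 5728 FPKM with DS-5272. It made up 57.4% to 85.7% of the summed FPKM of the 6 genes with vehicle and 64.1% to 77.1% with DS-5272. The mean rose from 618 ± 312 to 3517 ± 2027 FPKM (SD, n = 3 each), a difference of 2.51 ± 0.57 (SE, limma adjusted p = 0.013), which took Lcn2 from place 116 to place 8 among all tested genes.

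Mmp9, the gelatinase for which the last of the granule types is named, was at 9.93, 41.0 and 41.2 FPKM with vehicle and at 236, 597 and 1097 FPKM with DS-5272. Even the lowest DS-5272 sample was several times above the highest vehicle sample. The mean rose from 30.7 ± 18.0 to 643 ± 432 FPKM (SD, n = 3 each), a difference of 4.32 ± 0.71 (SE, limma adjusted p = 0.0052). Only 3 of the 11130 tested genes rose more on this scale, and under the alternatives its place ran from 4 to 21. Without vehicle replicate 1 the difference was 3.68, the lowest over the alternatives.

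Camp and Ngp, which encode the cathelicidin antimicrobial peptide and neutrophilic granule protein, a related secreted protein, and both lie on chromosome 9, were the later genes without a call. Camp was at 9.57, 106 and 216 FPKM with vehicle and at 60.0, 224 and 322 FPKM with DS-5272, so its groups overlapped. Its vehicle samples spanned 22.5-fold and its DS-5272 samples 5.37-fold, and the difference was 1.40 ± 1.16 (SE, limma adjusted p = 0.350). Without vehicle replicate 1, the lowest sample, the difference of Camp was 0.11 (adjusted p = 0.915 from limma, the highest over the alternatives).

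Ngp was at 17.2, 218 and 349 FPKM with vehicle and at 153, 740 and 1211 FPKM with DS-5272. Here too the groups overlapped, since DS-5272 replicate 1 was below vehicle replicates 2 and 3. The difference was 2.21 ± 1.23 (SE, limma adjusted p = 0.179), and 0.90 without vehicle replicate 1 (adjusted p = 0.435). With the replicate block the standard errors fell to 0.36 for Camp and 0.27 for Ngp and both passed the test (adjusted p = 0.020 and 0.0024 from limma). The pairing behind this block was inferred from these same data, so these calls are less secure than those made without it.

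Replicate 1 had the lowest and replicate 3 the highest level of every later gene in both groups, and the ratio of DS-5272 to vehicle within same-numbered samples was above 1 for all 6 genes in all 3 pairs. For Ltf these ratios were 16.2, 15.0 and 17.7 in pairs 1, 2 and 3, nearly the same in spite of levels that differed several times. For Mmp9 they were 23.8, 14.6 and 26.6, for Mmp8 9.29, 10.8 and 14.0 and for Lcn2 6.69, 4.09 and 6.81. Ngp had ratios of 8.94, 3.39 and 3.47 and Camp of 6.27, 2.12 and 1.49, both highest in pair 1. The primary genes were below 1 in all 3 pairs, at 0.0173, 0.0869 and 0.0100 for Mpo, 0.223, 0.228 and 0.0987 for Elane, 0.704, 0.636 and 0.551 for Prtn3 and 0.714, 0.544 and 0.364 for Ctsg.

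**Figure D3:**
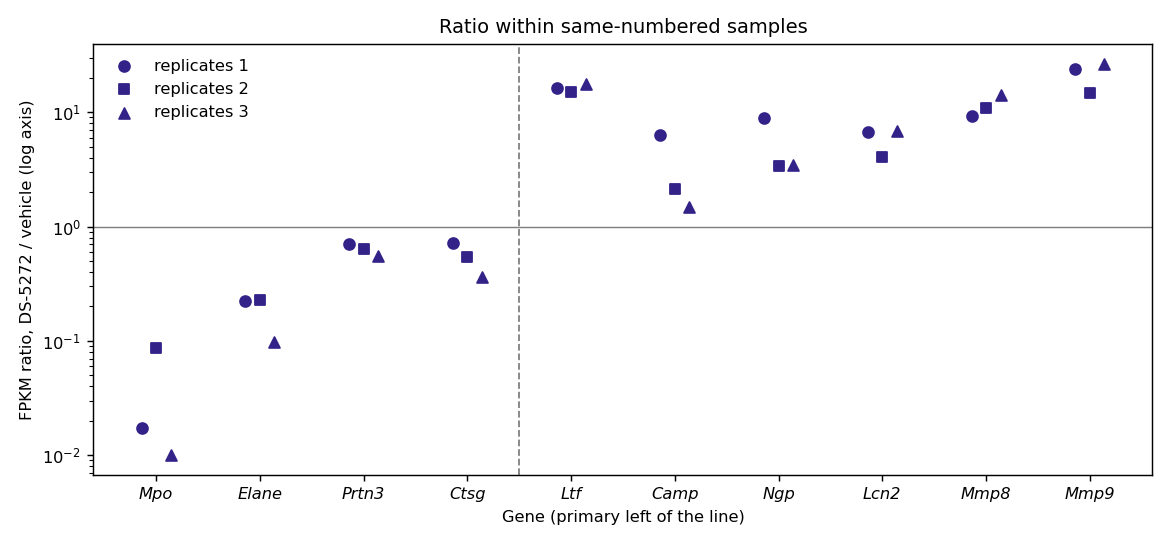
Ratio of the DS-5272 to the vehicle level (FPKM, log axis) of each granule gene within the 3 pairs of samples that share a replicate number, 1 symbol for each pair, with a line at a ratio of 1. All 12 primary ratios lie below the line and all 18 later ratios above it, and those of Camp run from 1.49 to 6.27.

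The proportions among the later genes also differed between the groups. The ratio of Ngp to Camp was 1.79, 2.06 and 1.62 with vehicle and 2.56, 3.30 and 3.76 with DS-5272. Mmp9 stood at 1.64, 3.43 and 2.58 times the level of Mmp8 with vehicle and at 4.21, 4.61 and 4.92 times with DS-5272. The ratio of Ltf to Camp, genes of the same granule type, was 0.0813, 0.0204 and 0.0131 with vehicle and 0.210, 0.144 and 0.155 with DS-5272. In none of these ratios of FPKM did the groups overlap. They are given as a description, since 3 samples against 3 cannot go below p = 0.1 in an exact permutation test.

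The sum of the 4 primary genes and the sum of the 6 later genes changed places between the groups. The primary sum was 4228, 4411 and 5002 FPKM with vehicle and 2085, 1862 and 1349 FPKM with DS-5272. The later sum was 305, 1130 and 1465 FPKM and 2266, 4798 and 8631 FPKM in the same samples. The later sum was thus below the primary sum in every vehicle sample, at 0.0721, 0.256 and 0.293 times it, and above it in every DS-5272 sample, at 1.09, 2.58 and 6.40 times. Most of the later sum with DS-5272 was Lcn2, at 1747, 3076 and 5728 FPKM. Without Lcn2 the later sum stayed below the primary sum in DS-5272 replicates 1 and 2 and was above it only in DS-5272 replicate 3. DS-5272 replicate 3 had the lowest primary and the highest later sum, while DS-5272 replicate 1, at 1.09, had nearly equal sums.

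**Figure D4:**
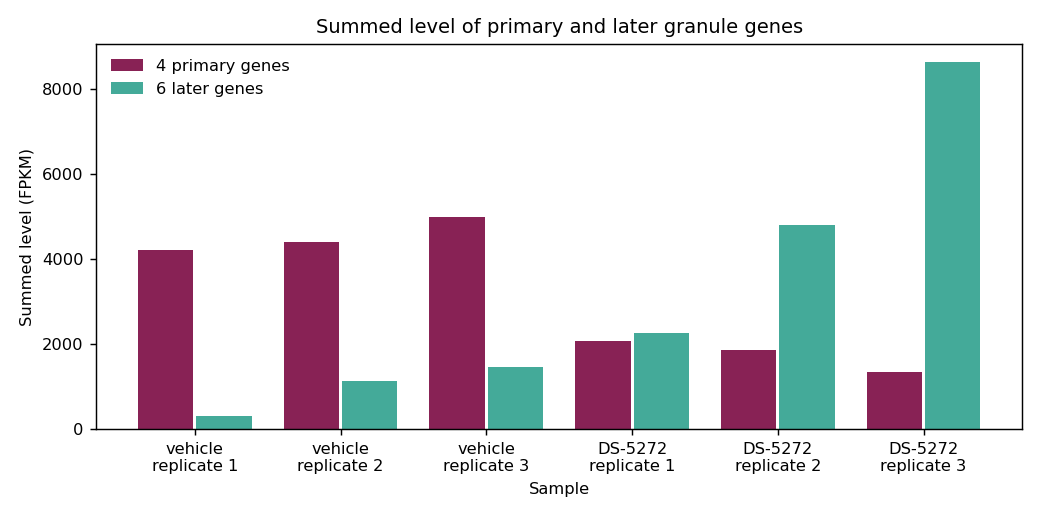
Summed FPKM of the 4 primary (purple) and the 6 later (green) granule genes in each of the 6 samples. The purple bar is the higher in each vehicle sample and the green bar in each DS-5272 sample, from 2085 against 2266 FPKM in DS-5272 replicate 1 to 1349 against 8631 FPKM in DS-5272 replicate 3. Lcn2 alone makes up 64.1% to 77.1% of the green bar with DS-5272.

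Taken as a mean of logarithms, which gives each gene equal weight, the later genes lay below the primary genes by −5.90, −3.81 and −3.78 with vehicle and at −0.61, 0.53 and 2.08 relative to them with DS-5272. The mean of this gap went from −4.50 ± 1.22 to 0.67 ± 1.35 (SD, n = 3 each), a difference of 5.16, given without a test because the members were chosen with results known. It compares genes within a sample, and rescaling the samples left it at 5.17. As shares of all FPKM, the primary genes went from between 0.896% and 0.998% to between 0.204% and 0.418%, and the later genes from between 0.0685% and 0.292% to between 0.454% and 1.31%.

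Of 7 tested other genes that belong to primary granules or to the packing of proteases, 2 rose and 1 fell, shares near the 24.2% and 22.0% of all tested genes, with a median difference of 0.40. With the replicate block 4 of the 7 rose and 1 fell, beside 30.3% and 24.9% of all tested genes. The riser with the largest change was Ctsc, which encodes the dipeptidyl peptidase that trims elastase, proteinase 3 and cathepsin G into active enzymes, at 54.1, 47.9 and 39.5 FPKM with vehicle and 433, 320 and 296 FPKM with DS-5272 (difference 2.86 ± 0.18 SE, limma adjusted p = 0.00061). The activating enzyme was thus higher in every sample in which its substrates were lower. Cd63, a membrane protein of the granule that helps to sort elastase, rose by 1.05 (adjusted p = 0.013 from limma). Prss57, the fourth of the neutrophil serine proteases, fell from 9.87, 8.55 and 11.2 FPKM to 6.72, 6.48 and 5.94 FPKM (difference −0.55 ± 0.12 SE, limma adjusted p = 0.013), a call lost without vehicle replicate 3 (0.054). Srgn, the proteoglycan serglycin on which the proteases are packed, was at 1079, 1439 and 1535 FPKM with vehicle and 1570, 1899 and 2385 FPKM with DS-5272 (difference 0.53, adjusted p = 0.086, and 0.0036 with the replicate block, from limma). Ms4a3, a promyelocyte gene, could be read only from an entry shared with Ms4a2, which fell by 0.96 on the log2 scale (adjusted p = 0.0039 from limma).

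Of the other later granule genes 11 of 17 tested rose, with a median difference of 1.73, where 24.2% of all tested genes rose. With the replicate block 16 rose, beside 30.3% of all tested genes. The list also holds Bpi, although the protein it encodes, which kills gram-negative bacteria, belongs to the primary granules. Bpi was under the filter and fell when no filter was set, at 0.529, 0.422 and 0.870 FPKM with vehicle and 0.169, 0.255 and 0.191 FPKM with DS-5272. The 3 that rose most without overlap were Adam8, a membrane-bound metalloprotease, by 3.68, Retnlg, a resistin-like protein, by 3.61, and Lrg1, a leucine-rich glycoprotein, by 2.96 (adjusted p = 0.0012, 0.015 and 0.00070 from limma). Lyz2, lysozyme, which is found in all granule types and in monocytes, went from 889, 989 and 1127 FPKM to 6108, 6870 and 8815 FPKM, a difference of 2.85 (adjusted p = 0.00068 from limma). Chil3 and Olfm4 resembled Camp and Ngp in that their groups overlapped and only the replicate block gave a call, with differences of 1.04 and 2.20 (adjusted p = 0.199 and 0.113, and 0.0012 and 0.0016 with the block, from limma). Fcnb, ficolin B, stood at 0.742, 5.03 and 12.7 FPKM with vehicle and 0.975, 3.71 and 4.67 FPKM with DS-5272, with no call (difference −0.48, adjusted p = 0.624 from limma, and 0.21 without vehicle replicate 3).

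**Figure D5:**
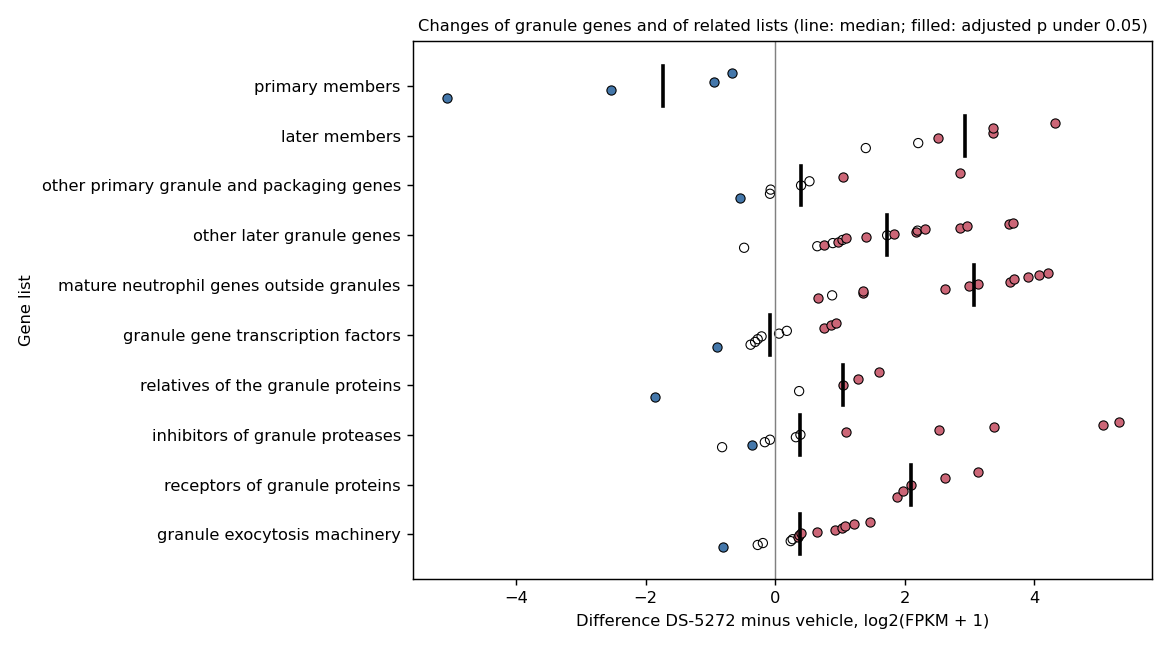
Difference in log2(FPKM + 1) between DS-5272 and vehicle for each tested gene of the granule gene classes and of 8 related lists, with filled symbols for genes at an adjusted p under 0.05 (red higher, blue lower), open symbols for the others and a line at each median. The primary members lie at −5.07 to −0.67 with a median of −1.74, while the lists of later granule genes and of mature neutrophil genes have medians of 1.73 and 3.07.

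Genes of mature neutrophils that are not granule proteins rose in 11 of 12 tested cases (12 with the replicate block), with a median difference of 3.07. Over all tested genes 24.2% rose, and 30.3% with the block. Stfa2l1, a stefin, rose by 4.21, S100a9, a subunit of calprotectin, by 4.08 and Fpr1, the receptor for formyl peptides, by 3.90 (adjusted p = 0.027, 0.021 and 0.00060 from limma). Stfa2l1 lost its call without DS-5272 replicate 2 (adjusted p = 0.078) or 3 (0.082), without vehicle replicate 1 (0.052, difference 3.02) and with no filter (0.058), and S100a9 without DS-5272 replicate 2 (0.061) or 3 (0.066). The list of 9 neutrophil markers holds Mmp8 and Ltf, and without them the 7 remaining markers summed to 166, 840 and 1161 FPKM with vehicle and to 2953, 8818 and 14130 FPKM with DS-5272. This sum moved with the later granule genes, lowest in replicate 1 and highest in replicate 3 of both groups, and its part in their rise was not tested. Ly6g, a surface marker of neutrophils and 1 of these 7, followed the same order of samples at a low level, with 0.160, 0.198 and 0.264 FPKM with vehicle and 0.580, 3.06 and 3.66 FPKM with DS-5272. Its mean was 11.7-fold higher with DS-5272, beside 11.2-fold for S100a8, the other subunit of calprotectin (difference of Ly6g 1.36, adjusted p = 0.030, a call lost without vehicle replicate 1, 2 or 3 at 0.078, 0.083 and 0.072 and with no filter at 0.057, from limma). With a vehicle mean of 0.207 FPKM, Ly6g reached the filter only through its DS-5272 values, so its call is not independent of the filter. Cxcr2, the chemokine receptor of circulating neutrophils, went from 1.19, 1.02 and 1.04 FPKM to 9.41, 14.7 and 27.2 FPKM (adjusted p = 0.0021 from limma). Alpl and Mme, genes of segmented neutrophils, were at most 0.0183 FPKM in every sample.

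Markers of the leukemia and of other cells were read beside the granule genes. Of 5 tested leukemia markers, Ptprc and Itgam rose and Kit fell from 45.0, 32.3 and 30.5 FPKM to 12.1, 9.70 and 4.94 FPKM (adjusted p = 0.0046 from limma). Meis1, a target of MLL fusions, was at 66.1 to 80.5 FPKM with vehicle and 69.2 to 110 FPKM with DS-5272 with no call. Cd34 had no call either (difference 0.18, adjusted p = 0.412 from limma). Over all tested genes 24.2% rose and 22.0% fell. The joined entry of Hoxa9 and Hoxa10 was at 220 to 290 FPKM with vehicle and at 204 to 237 FPKM with DS-5272. Among the monocyte markers Csf1r and Ccr2 rose, and the summed level of the list was 1268 to 1306 FPKM with vehicle and 1124 to 1497 FPKM with DS-5272. Of 9 tested macrophage markers 4 rose, and 6 with the replicate block (the 4 were Adgre1, C1qb, C1qc and C1qa, the last of which lost its call without vehicle replicate 1 or 2 at 0.052 and 0.065). Over all tested genes 24.2% rose, and 30.3% with the block. In this list Axl, Mertk and Spic, with vehicle means of 0.463, 0.559 and 0.179 FPKM, reached the filter only through their DS-5272 values. Spic was among those called only with the block (adjusted p = 0.042 from limma). The summed level of the list was 61.1 to 116 FPKM with vehicle and 188 to 439 FPKM with DS-5272, and C1qb was highest in DS-5272 replicate 1 (58.2 FPKM, with 14.1 and 15.6 FPKM in the other DS-5272 samples), the sample in which the later granule genes were lowest of the 3. Hba-a1, a hemoglobin gene, was at 2.39, 1.05 and 0.598 FPKM with vehicle and at 84.2, 14.7 and 7.07 FPKM with DS-5272, likewise highest in DS-5272 replicate 1. It rose by 3.31 (adjusted p = 0.018 from limma, lost without vehicle replicate 2 or 3 at 0.057 and 0.055), and the joined entry of Beta-s and Hbb-b1, also hemoglobin genes, rose by 3.74 (adjusted p = 0.0089 from limma). Markers of erythroid cells, without that entry, summed to 1.87 to 3.77 FPKM with vehicle and to 8.20 to 90.3 FPKM with DS-5272. Markers of T cells summed to at most 3.47 FPKM, of NK cells to at most 3.42 FPKM, of B cells to at most 5.02 FPKM, of megakaryocytes to at most 6.95 FPKM, of basophils and mast cells to at most 24.4 FPKM, with Fcer1a at 0, and of eosinophils to at most 25.2 FPKM. Without DS-5272 replicate 1 the 4 primary calls and the 4 later calls were kept. C1qb and Hba-a1 were also higher in each of the other DS-5272 samples than in any vehicle sample. Leaving out DS-5272 replicate 1 therefore does not take away the difference in these markers. The part of the cells marked above in the granule gene results was not tested.

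Of 10 tested transcription factors known to act on granule genes, 3 rose and 1 fell, which is near or below the shares over all tested genes (24.2% and 22.0%). With the replicate block 3 rose and 2 fell, beside 30.3% and 24.9% of all tested genes. When samples were rescaled 3 or 4 fell, a count that has no share of all tested genes beside it. Gfi1, a repressor needed for the step from promyelocyte to neutrophil, fell from 65.8, 78.6 and 70.3 FPKM to 42.8, 34.8 and 35.9 FPKM (difference −0.90 ± 0.12 SE, limma adjusted p = 0.0033). Cebpe, the factor on which specific granule genes depend in normal marrow, was at 31.6, 43.3 and 48.0 FPKM with vehicle and 28.0, 50.8 and 52.8 FPKM with DS-5272, with no call (difference 0.06, 95% interval −0.59 to 0.71, adjusted p = 0.860 from limma), and its sign turned under rescaling to a common total (−0.20). Cebpa, which acts earlier and on the primary genes, was at 29.7, 34.0 and 29.2 FPKM with vehicle and 22.9, 19.6 and 28.7 FPKM with DS-5272 (difference −0.38, adjusted p = 0.077 from limma), and rescaling to a common total, upper quartile or median ratio and quantile normalization each gave a call (adjusted p = 0.013, 0.019, 0.032 and 0.021), as did leaving out DS-5272 replicate 3 (0.018). Cebpb, Cebpd and Spi1, which encodes PU.1, rose by 0.94, 0.86 and 0.75 (adjusted p = 0.033, 0.0039 and 0.011 from limma). Cebpb lost its call with no filter (0.063) and without any 1 of DS-5272 replicates 2 and 3 or vehicle replicates 1, 2 and 3 (0.058 to 0.096). Rescaling moved the median of all tested genes from 0.04 to as low as −0.19, and each of the 8 called members kept its call under every rescaling.

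Relatives of the granule proteins in other cells were mostly absent: 13 of 18 were under the filter, among them the peroxidases Epx and Lpo at no more than 0.105 FPKM and the granzymes. Of the 5 tested, 3 rose (4 with the replicate block) and 1 fell, with a median of 1.05. Over all tested genes 24.2% rose (30.3% with the block) and 22.0% fell. Trf, transferrin, the serum relative of lactoferrin, rose by 1.61, and the metalloproteases Mmp19 and Mmp2 by 1.28 and 1.05 (adjusted p = 0.0024, 0.0093 and 0.025 from limma), where Mmp2 lost its call when any 1 sample other than DS-5272 replicate 1 was left out (0.052 to 0.076), with no filter (0.052) and with the largest row in place of the sum (0.098). Mcpt8, a serine protease of basophils related to cathepsin G, fell by 1.86 on the log2 scale, from 7.32 to 9.56 FPKM to 1.38 to 1.94 FPKM (adjusted p = 0.00073 from limma). Cfd, the gene of a related serine protease, complement factor D, was under the filter at 0.443 to 0.624 FPKM with vehicle and 0.129 to 0.156 FPKM with DS-5272.

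Inhibitors of granule proteases rose in 5 of 11 tested cases and fell in 1, with a median of 0.39, and with the replicate block 6 rose and 2 fell. Over all tested genes 24.2% rose and 22.0% fell, and 30.3% and 24.9% with the block. The stefins Stfa2, Stfa3 and Stfa1, inhibitors of cysteine cathepsins, rose by 5.31, 5.07 and 3.38 (adjusted p = 0.0091, 0.0049 and 0.012 from limma), and they are near-identical genes among which fragments could be split. Slpi, which blocks elastase and cathepsin G, rose from 651, 711 and 664 FPKM to 1546, 1266 and 1518 FPKM (difference 1.09, adjusted p = 0.0026 from limma), and Timp2, an inhibitor of metalloproteases such as Mmp9, rose by 2.53 (adjusted p = 0.0018 from limma). Serpinb1a, the cytosolic inhibitor of the primary granule proteases, had 191 to 265 FPKM with vehicle and 175 to 269 FPKM with DS-5272 (difference −0.08, 95% interval −0.55 to 0.38, adjusted p = 0.751 from limma), while rescaling to a common total gave −0.35 (0.038) and quantile normalization −0.48 (0.0068), and leaving out DS-5272 replicate 1 or vehicle replicate 3 turned its sign (0.06 and 0.03). Cst7, cystatin F, which inhibits the cathepsin that Ctsc encodes, fell by 0.36 on the log2 scale (adjusted p = 0.023 from limma), and lost its call without vehicle replicate 1, 2 or 3 (0.075, 0.094 and 0.064).

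Receptors of granule proteins rose in 5 of 5 tested cases (Fpr2, Cd14, Itgam, Itgb2 and Lrp1), with a median of 2.10, where 24.2% of all tested genes rose. Fpr2, a receptor of the cathelicidin peptide, rose by 3.13, the lipopolysaccharide receptor Cd14 by 2.63 and Itgam, which binds elastase and myeloperoxidase at the cell surface, by 2.10 (adjusted p = 0.0020, 0.018 and 0.0031 from limma), and the call of Cd14 was lost without DS-5272 replicate 3 (0.053). Of 14 tested genes of granule exocytosis 9 rose and 1 fell, beside 24.2% and 22.0% of all tested genes. Their median was 0.39, and 5 rose without vehicle replicate 1 or vehicle replicate 2. Lyst, which controls granule size, rose by 1.47, and the fusion proteins Stx11 and Snap23 by 1.22 and 1.08 (adjusted p = 0.0093, 0.0035 and 0.0036 from limma). G6pc3, a glucose phosphatase whose loss causes neutropenia, fell by 0.81 on the log2 scale (adjusted p = 0.010 from limma).

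Over the 6 samples, the tested genes whose centred log2 profile was nearest to the mean profile of the 4 primary genes were Hmgn5, Sqle and Nedd4, with root mean square distances of 0.20, 0.24 and 0.25 in log2(FPKM + 1). Nearest to the mean profile of the 6 later genes were Cd14, Rgs1 and Dusp6, at 0.25, 0.25 and 0.29. Cd14 is also among the receptors above, and Rgs1 had 1.08, 4.02 and 5.75 FPKM with vehicle and 13.1, 37.3 and 60.5 FPKM with DS-5272, with replicate 1 lowest and replicate 3 highest in both groups as for each later granule gene.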

How the data were processed

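RNA-Seq of sorted MLL-AF9 leukemia cells was available as 1 table of deposited FPKM values, which the authors derived per gene from paired-end reads of strand-specific libraries. Per the submitters' processing notes, reads were trimmed with cutadapt 1.8.1 and processed with TopHat2 2.1.1 and Cufflinks 2.2.1 on GRCm38. FPKM is divided by transcript length and mapped fragments, so no count model was used. Of 26632 rows, those of 435 names on several rows were summed, and 433 rows that join genes were kept as they are.

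Groups were taken from the treatment label, 3 vehicle and 3 DS-5272 samples. They were compared across the 11130 genes whose mean reached 1 FPKM by limma 3.58.1 (R 4.3.3, lmFit and eBayes with trend, two-sided) on log2(FPKM + 1), which understates changes of low genes. P-values were adjusted by Benjamini-Hochberg over all of these genes, with 0.05 as the threshold. The script was tested on simulated data. No set test was run.

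Replicate numbers run from 1 to 3 in both titles. Labels and methods name no batch, litter or day that same-numbered samples share. Deviations from group means correlated by 0.66, 0.21 and 0.43 between same-numbered samples and by −0.58 to 0.34 between others. The 0.34, between vehicle replicate 2 and DS-5272 replicate 3, was above the 0.21 of the samples numbered 2. On these values alone the numbers were taken to pair the samples, so the pairing was inferred from the data that the blocked fit tests. The fit blocked on this number is given beside the calls of named genes and the counts of lists that it changes.

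The members and lists were chosen with earlier results of these data known. The named genes are the 10 members, up to 3 rises and 3 falls without overlap in each list, Cebpa, Cebpe and Gfi1, markers of the sorted cells, and the 3 genes nearest to each class in profile. Srgn, Ms4a3, Lyz2, Chil3, Olfm4, Fcnb, Slpi, Timp2, Serpinb1a, Epx, Lpo, Cfd, Bpi, Itgb2, Lrp1, Adgre1, Hbb-b1, Alpl and Mme were named after their values were seen. Of 171 list genes, 158 had an entry under their own symbol, 5 under an older symbol and 5 in a joined entry, and 3 had none. Not every gene named by this rule is reported here. Exons of Adam8, Cebpa, Cebpb, Cebpd, Csf1r, Gfi1, Mmp19 and Prss57 overlap a gene on the opposite strand and those of Fpr2, Itgam and Trf one on the same strand.

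As alternatives, the pseudocount was set to 0.1, the filter was dropped or raised to 5 FPKM, and 4 rescalings, eBayes without trend, the replicate block, the largest row of a name, and leaving out each sample in turn were tried. Python 3.11.15 with pandas 2.3.3 and matplotlib 3.10.9 was used for summaries and plots.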

Additional observations from a re-analysis of the deposited data

How the results depend on the processing

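The count of 4 later genes that rose was 4 in every alternative except the replicate block, where it was 6. The count of 4 primary genes that fell ran from 2 to 4 when 1 sample was left out, with 2 without vehicle replicate 2 and without vehicle replicate 3, and was 3 with no filter. The gap between later and primary genes ran from 4.46 to 5.80 with 1 sample left out.

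Over all tested genes 24.2% rose and 22.0% fell, and 30.3% and 24.9% with the replicate block. Such shares are not given for the other alternatives. Other lists moved as follows. With the replicate block 4 other primary granule genes rose (2 without it), 16 other later granule genes (11), 12 mature neutrophil genes (11), 4 relatives of the granule proteins (3), 6 inhibitors (5), 6 macrophage markers (4) and 1 megakaryocyte marker (0), while 2 transcription factors fell (1 without it) and 2 inhibitors (1). Fallen transcription factors numbered 3 under a common total, median ratio or upper quartile, 4 under quantile normalization and 1 to 2 with 1 sample left out. Fallen inhibitors numbered 2 under a common total or quantile normalization and 0 to 2 with 1 sample left out. Fallen exocytosis genes numbered 2 under a common total, upper quartile or quantile normalization, and risen ones 5 to 9 with 1 sample left out. Fallen other primary genes numbered 0 to 1 with 1 sample left out. With no filter 1 gene in the list of other later granule genes fell, Bpi, whose protein is of the primary granules, and 2 relatives of the granule proteins fell. The causes were not tested.

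Of 1067 values of 67 named genes under the alternatives, 1004 kept direction and side of the threshold, 39 (12 genes) lost a call, 14 (7 genes) gained one and 10 (4 genes) changed sign. The sign changes were in genes without a call: Cebpe under a common total (−0.20), quantile normalization (−0.10), upper quartile (−0.07) and without DS-5272 replicate 2 (−0.07), DS-5272 replicate 3 (−0.09) or vehicle replicate 1 (−0.11), in a range from −0.11 to 0.35 with 1 sample left out; Fcnb without vehicle replicate 3 (−1.28 to 0.21 with 1 sample left out); Serpinb1a without DS-5272 replicate 1 or vehicle replicate 3 (−0.24 to 0.06 with 1 sample left out); and Meis1 under a common total (−0.02). With the replicate block Camp, Ngp, Srgn, Chil3 and Olfm4 gained a call. FPKM carries no counts, so no counting interval could be given, and leaving out a sample leaves 2 in its group.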
